A study of Arabidopsis thaliana with 8 samples.

Results

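The response of wild-type Arabidopsis thaliana seedlings (accession Col-0) to 2 h of oxygen shortage was described across the genome, in both directions, from 4 of the 8 arrays of the series. The members were the 2 Col-0 hypoxia arrays and the 2 Col-0 non-stress arrays, taken by title, description and treatment. The source field of both hypoxia arrays names the air treatment and was set aside. The seedlings were 7 d old and had grown upright on Murashige-Skoog medium with 1% sucrose, at 23 °C in days with 16 h of light (about 80 µmol photons per square metre and second). Hypoxia was given by argon (99.9%) in closed chambers under dim light (5 to 7 µmol) as the light period ended. Non-stress seedlings stood for 2 h in the same kind of chamber open to air, and their light level is not given in the sources used here. If the lighting differed, oxygen and light cannot be told apart. The other 4 arrays hold OE-HRA1 seedlings, which carry HRA1 under the 35S promoter with a FLAG tag (lines #1 and #2, 1 array each per treatment). They entered the estimate of the spread and a comparison at the end.

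Plants that run short of oxygen can no longer respire fully and turn to fermentation, while group VII ethylene response factors, which are degraded when oxygen is present, become stable and switch on a set of core hypoxia genes. Energy shortage, calcium signals and reactive oxygen species accompany the drop in oxygen, and growth, which is costly, is slowed. The core genes are the best studied part of this response, and most of the genes described here lie outside that set.

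Total RNA of whole seedlings was hybridized to Affymetrix ATH1 arrays, which measure a gene by a set of short probes. The deposited values are log2 signals, so that 1 unit is a doubling. The signal log2 ratio (SLR) is the mean of the hypoxia arrays minus the mean of the non-stress arrays, and a probe set counted as called where its |SLR| exceeded 1 and its adjusted p in limma was under 0.01. The 22634 probe sets tested had a median SLR of -0.014, and 87.9% lay within 0.5 of 0. The arrays of a group agreed closely, with a median absolute difference of 0.122 in Col-0 hypoxia and 0.0995 in Col-0 non-stress. Leaf markers stood at an SLR of 0.03 for SBPASE and -0.02 for RCA, both enzymes or helpers of carbon fixation with signals above 13 log2 units on every array. Of 4 root markers with a probe set, BGLU23 had -0.28, COBL9 -0.86, TIP2;3 -0.92 and EXPA7, a root hair expansin, -1.17, which was called lower. Of the seed storage markers 2 had a probe set, with SLRs of -0.46 and -0.11, and of the flower and pollen markers none could be matched to one. The part of the root markers in the results below was not tested, and in whole seedlings fewer cells of a type and less RNA per cell cannot be told apart. The reference genes PEX4, TIP41L and SAND had SLRs of 0.14, 0.08 and -0.34, and none was called.

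Hypoxia raised more transcripts than it lowered at the chosen minimum, and raised them much further. Higher in hypoxia were 458 probe sets (2.02% of those tested, 429 distinct genes among those with a single gene name) and lower were 189 (0.835%, 174 distinct genes), together 2.86% of those tested. The median SLR was 1.66 among the higher and -1.20 among the lower probe sets. Of the higher ones, 154 (33.6%) had an SLR above 2, 61 above 3 and 11 above 5. Of the lower ones, 5 (2.65%) passed -2 and 0 passed -3. For all 647 called probe sets the hypoxia arrays lay entirely on one side of the non-stress arrays, with at least 0.56 log2 units between the groups. The same absence of overlap held for 53.8% of all probe sets tested. A lack of overlap given for single called genes below therefore adds nothing to their call.

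**Figure D1:**
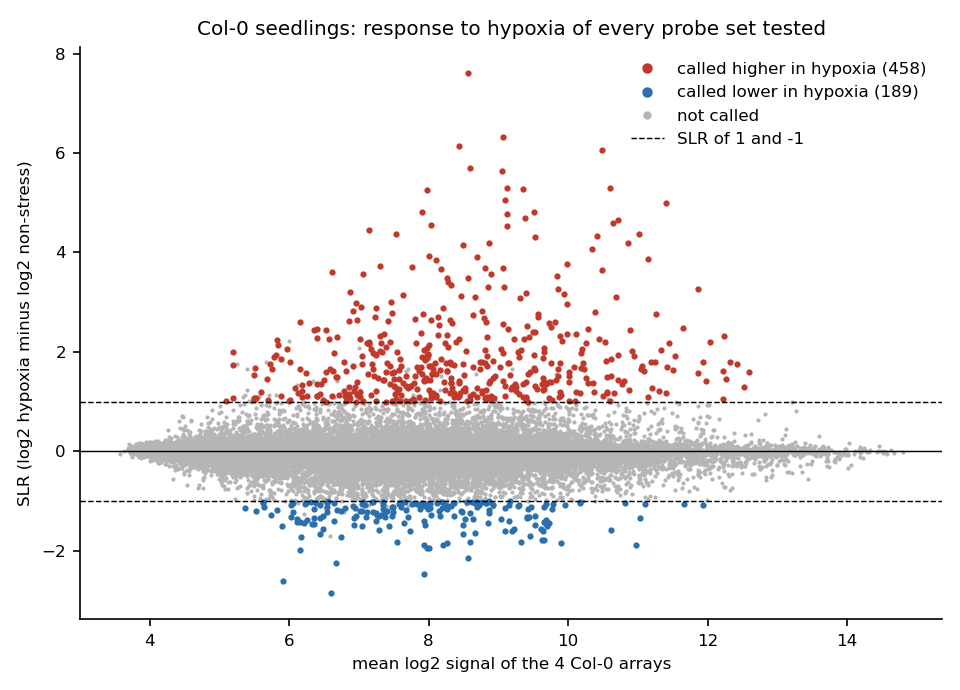
Each point is 1 of the 22634 probe sets, with the mean log2 signal of the 4 Col-0 arrays on the x axis and the SLR (hypoxia minus non-stress) on the y axis. The 458 red points reach an SLR of 7.61 and the 189 blue points end at -2.85.

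The excess of induced genes belonged to the larger changes. Without a minimum SLR, 930 probe sets were higher and 1065 lower at an adjusted p under 0.01, so that the lower ones were then the more numerous. Of these, 472 of the higher and 876 of the lower ones had changed by an SLR of at most 1. A further 37 probe sets had an SLR above 1 and 15 an SLR below -1 without passing the p threshold. The limit of 1 falls in a dense part of both distributions. Just past it lay AT3G26470, AT1G62840 and AT5G62770 on the higher side and UGT85A2, AGP2 and XTH12 on the lower side. Just short of it lay AT5G53830, AT4G00500 and ANAC087 on the higher side and P1R1, ECT7 and a probe set without a gene name on the lower side, all within rounding of an |SLR| of 1.

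The core hypoxia genes marked in the study's supplementary table made up a small share of the induced genes. Of 46 core genes tested, 45 were called higher and 0 lower. That table lists changed genes only, so that this count is no finding. The paper counts a few more core genes than were marked among the probe sets tested. Core genes here and below are the marked ones, and some genes given as outside the core may belong to it. The other 413 induced probe sets had a median SLR of 1.60, and 114 of them passed an SLR of 2 and 34 an SLR of 3. None of the 189 lower probe sets was a core gene.

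The largest induction outside the marked core genes was that of genes with little annotation. AT4G24110 read 10.33 and 10.27 on the hypoxia arrays, against 5.57 and 5.42 on the non-stress arrays, a 28.0-fold increase (SLR 4.81, SE 0.11, adjusted p = 1.82e-07). AT5G20790 read 11.32 and 11.71 in hypoxia and 6.32 and 7.17 in air (SLR 4.77, SE 0.25, adjusted p = 1.2e-05). AT1G76600 read 11.58 and 11.77 in hypoxia and 7.39 and 7.33 in air (SLR 4.31, SE 0.09, adjusted p = 1.25e-07). The groups were far apart for all 3, and only AT5G20790 differed visibly between its air arrays. The supplementary table described 412 induced and 180 lower probe sets. Among those with a single gene name, 84 distinct induced genes and 15 lower ones were described as similar to an unknown protein. Among the core genes, AT5G10040, also without a known role, had the largest change of all, with 12.39 and 12.35 in hypoxia and 4.75 and 4.77 in air (SLR 7.61, SE 0.26, adjusted p = 9.52e-07).

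**Figure D2:**
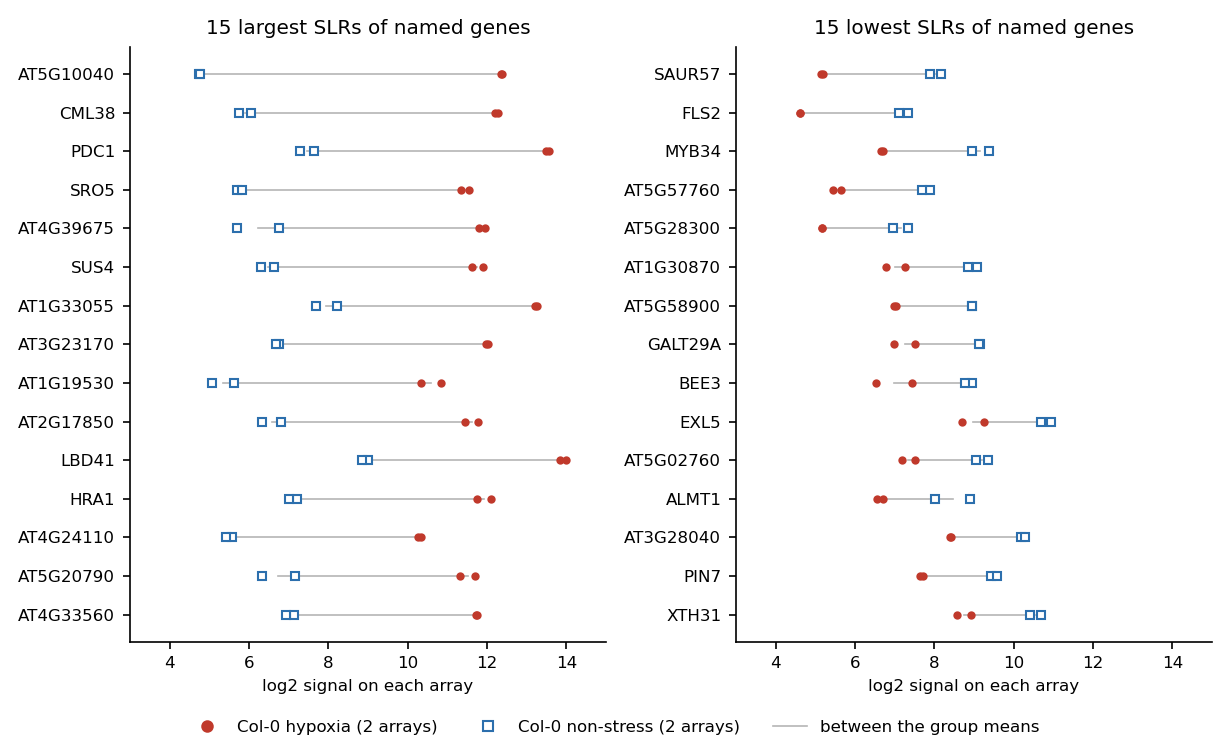
Log2 signal (x axis) on each Col-0 array for the 15 named genes with the largest SLR (left) and the 15 with the lowest (right). Filled circles are hypoxia arrays, open squares non-stress arrays and grey lines join the group means. Only genes without overlap between the 2 groups were eligible, and the SLRs are 4.69 to 7.61 on the left and -2.85 to -1.79 on the right.

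Genes for transcription factors were called in several families. The families and groups named from here on were put together from the called genes, so their counts describe the genes called and are no test of a group. The supplementary table described 412 higher and 180 lower probe sets. Among those with a single gene name, transcription factors numbered 58 distinct genes higher and 19 lower, a split close to that of all called probe sets (70.8% higher). AP2/ERF factors, many of which act in ethylene and stress responses, had 18 genes higher and 1 lower. ERF6 read 9.71 and 9.58 in hypoxia and 6.87 and 6.66 in air (SLR 2.88, SE 0.11, adjusted p = 1.91e-06). ERF5, ERF4 and ERF104 had SLRs of 2.66, 2.06 and 2.04, and the largest SLR of the group was 3.93. ERF4 is a repressor of the family, so that induced members included both activators and a repressor. DREB2A, which activates drought and heat genes, read 8.75 and 9.85 in hypoxia against 6.50 and 6.56 in air (SLR 2.77, SE 0.29, adjusted p = 0.000515), with the hypoxia arrays more than 1 unit apart. TEM1 and RAV2, repressors with an AP2 and a B3 domain that delay flowering, had SLRs of 2.02 and 1.69.

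Of 9 called zinc finger genes 8 were higher and 1 lower, and the largest SLR was 4.2. STZ, a repressor of the C2H2 class induced by salt and cold, read 10.01 and 9.99 in hypoxia and 6.57 and 6.49 in air, an 11.1-fold increase (SLR 3.48, SE 0.08, adjusted p = 1.66e-07). The related ZAT6 and AZF2 had SLRs of 3.10 and 2.18. SZF1 and SZF2, a pair of salt-inducible CCCH zinc finger genes, had SLRs of 3.16 and 2.22. The lower member was IDD2 (SLR -1.04), and all 9 genes kept their call in each fit that left out 1 Col-0 array.

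Among WRKY genes, which mostly serve defence, 8 were higher and 1 lower. WRKY70, placed between the salicylate and jasmonate branches of defence, read 10.68 and 11.15 in hypoxia and 7.19 and 7.27 in air (SLR 3.69, SE 0.15, adjusted p = 2.73e-06). WRKY6, WRKY18 and WRKY11 had SLRs of 2.01, 1.96 and 1.36. The lower member was RRS1, a resistance protein with a WRKY domain, whose 2 probe sets had SLRs of -1.07 and -1.03. The second of these fell short of the call without Col-0 hypoxia replicate 1 and without Col-0 non-stress replicate 2, with adjusted p-values up to 0.00669 and an |SLR| down to 0.91. WRKY25 was called at 1.19 but not without Col-0 non-stress replicate 1 (adjusted p = 0.0106).

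Called NAC and MYB genes were split much like all called probe sets, of which 70.8% were higher. Of 7 called NAC genes 6 were higher, among them NAC036 (SLR 2.60) and TIP (SLR 1.78), and NAC083 was lower (SLR -1.42). Of 13 called MYB and MYB-like genes 10 were higher. MYBL2, a repressor of anthocyanin synthesis, read 8.21 and 8.26 in hypoxia and 6.12 and 5.95 in air (SLR 2.19, SE 0.10, adjusted p = 6.68e-06). HRS1, a MYB-like repressor of the nitrate and phosphate responses of roots, had an SLR of 1.77, and the MYB family genes AT1G68670 and AT1G25550 had 1.67 and 1.43. The clock-related EPR1 and RVE1 had 1.60 and 1.51. Of the heat shock factors HSFA8, HSFB2A and HSFA4A had SLRs of 1.89, 1.79 and 1.02, and HSFA4A lost its call without Col-0 hypoxia replicate 2 or Col-0 non-stress replicate 1, where its adjusted p reached 0.0139. Light signalling genes were few. FHL, which helps phytochrome A into the nucleus, read 7.85 and 8.80 in hypoxia and 5.39 and 5.58 in air (SLR 2.83, SE 0.26, adjusted p = 0.000265).

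Ubiquitin ligase genes were mostly on the higher side. Of the described genes with a single name, 26 higher ones (SLR 1.02 to 3.71, median 1.37) and 1 lower one carried a RING finger or a U-box, the hallmark of ubiquitin ligases. CNI1, a membrane-bound ligase of the carbon and nitrogen balance, read 9.58 and 9.64 in hypoxia and 6.10 and 5.70 in air (SLR 3.71, SE 0.14, adjusted p = 2.18e-06). The U-box ligases PUB23 and PUB22, which dampen immune signalling, had SLRs of 1.62 and 1.32. RMA1, RMA3 and RMA2, a small family of ligases of the endoplasmic reticulum, had 1.48, 1.09 and 1.08. RMA3 and RMA2 were called in 2 and 1 of the 4 fits without a Col-0 array, with adjusted p-values up to 0.0231 and 0.0146. The kelch repeat F-box genes KMD3, KMD1 and KMD2 had SLRs of 2.36, 1.80 and 1.79. KMD1 read 12.31 and 11.98 in hypoxia and 10.52 and 10.18 in air (SE 0.15, adjusted p = 0.000138). KMD proteins mark activators of the cytokinin response for destruction, and a link to the cytokinin genes named next was not tested. In the same arrays CKX4, a cytokinin-degrading oxidase, was higher (SLR 1.25), and the response regulators ARR16 and ARR6, which cytokinin induces, were lower (SLR -1.46 and -1.29). All 3 calls were kept in each fit without 1 Col-0 array.

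VQ motif genes, whose products bind WRKY proteins, were higher in 5 of 5 called cases, all of them kept in each fit without 1 Col-0 array. AT2G22880 read 8.69 and 8.98 in hypoxia and 5.37 and 5.19 in air (SLR 3.56, SE 0.17, adjusted p = 7.7e-06). SIB1, which also binds a plastid sigma factor, read 7.95 and 8.41 in hypoxia and 5.40 and 5.69 in air (SLR 2.63, SE 0.27, adjusted p = 0.000464). The groups were separate in both genes. The other 3 had SLRs of 1.30 to 1.65.

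Resistance-type genes with a TIR domain went both ways. Of 10 called genes 7 were higher and 3 lower. AT1G72920 read 9.41 and 9.35 in hypoxia and 4.98 and 4.87 in air, a 22.0-fold increase (SLR 4.46, SE 0.09, adjusted p = 1.25e-07). Its relatives AT1G72940, AT1G72900 and AT1G72890 had SLRs of 3.09, 2.47 and 1.72, and AT1G66090 had 2.45. RPS6, which recognizes a bacterial effector, was higher too (SLR 1.55). Lower were DAR4, AT2G14080 and RRS1, with DAR4 at 5.45 and 5.73 in hypoxia and 6.92 and 7.20 in air (SLR -1.47, SE 0.15, adjusted p = 0.000374). HSPRO2, a gene of basal resistance, had one of the larger inductions outside the core genes, with 10.62 and 10.66 in hypoxia and 6.84 and 6.62 in air (SLR 3.91, SE 0.12, adjusted p = 5.35e-07).

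Calcium sensors and their kinases had 17 genes higher and 1 lower. Besides the core gene CML38 (SLR 6.33), PBP1, an EF-hand protein that binds the kinase PINOID, read 8.32 and 8.52 in hypoxia and 4.63 and 5.01 in air (SLR 3.60, SE 0.14, adjusted p = 2.77e-06). IQM1, TCH3, CAMBP25 and CPK28 had SLRs of 2.00, 1.79, 1.75 and 1.41. The lower gene was CNGC2, a cyclic nucleotide-gated calcium channel, with 8.86 and 8.70 in hypoxia and 10.19 and 10.02 in air (SLR -1.32, SE 0.10, adjusted p = 0.000106). Only 13 of the 18 genes kept their call in each fit without 1 Col-0 array. CBP60a, for example, lost it without Col-0 hypoxia replicate 2, Col-0 non-stress replicate 1 or Col-0 non-stress replicate 2, where its adjusted p reached 0.0513. In the protein kinase cascades MKK9 read 9.99 and 10.12 in hypoxia and 8.10 and 8.05 in air (SLR 1.98, SE 0.11, adjusted p = 1.24e-05), and S6K2, an AGC kinase downstream of TOR, had an SLR of 2.58 with hypoxia arrays at 9.13 and 10.13. The platform table alone named 8 genes of the CML family, of which 7 had an SLR above 0 (median 0.40) and 1, CML38, was called.

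The genes grouped here as mitochondrial and redox were higher in 6 of 6 called cases. That count depends on the grouping. It leaves out the carrier APC1, described below, which was lower. It also leaves out the 6 called class III peroxidases, enzymes that act on hydrogen peroxide, which were all lower and were grouped apart. OM66, an ATPase of the outer mitochondrial membrane and a marker of mitochondrial stress, read 8.25 and 8.72 in hypoxia and 5.54 and 5.61 in air (SLR 2.91, SE 0.15, adjusted p = 1.2e-05). RBOHB, an NADPH oxidase outside the core set, read 8.57 and 8.02 in hypoxia and 5.74 and 5.56 in air (SLR 2.65, SE 0.16, adjusted p = 2.57e-05). In both genes the groups were separate. A dicarboxylate carrier of the inner mitochondrial membrane, DIC2, was higher as well. It read 8.92 and 9.24 in hypoxia and 6.77 and 6.63 in air (SLR 2.38, SE 0.14, adjusted p = 2.47e-05). Its hypoxia and air arrays did not overlap either. Another carrier, APC1, which moves ATP-magnesium against phosphate, was lower (SLR -1.20), and so was ASE2, the entry enzyme of purine synthesis (SLR -1.02), which missed an |SLR| of 1 without Col-0 hypoxia replicate 1 or Col-0 non-stress replicate 1 (adjusted p up to 0.00199).

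Of 5 called chaperone genes 4 were higher and 1 lower. The J-domain protein gene DJC66 read 12.93 and 13.22 in hypoxia and 9.20 and 9.21 in air, a 14.7-fold increase (SLR 3.87, SE 0.11, adjusted p = 4.29e-07), and J11, of the same class, had an SLR of 1.97. The lower gene was AT2G47440 (SLR -1.37). The small heat shock protein genes AT5G51440 (mitochondrial) and AT1G54050 (class III) were called at SLRs of 2.37 and 1.63 with widely spaced hypoxia arrays, 7.77 and 9.31 for AT5G51440, against 6.24 and 6.11 in air. Both lost the call without Col-0 non-stress replicate 1 or Col-0 non-stress replicate 2, with adjusted p-values up to 0.0355 and 0.0238. Of the 8 heat shock genes that the platform table names, 2 were called higher, 0 lower, and the median SLR was 0.84, beside -0.007 over the 13264 genes named by that table (1.82% higher, 0.618% lower).

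Nitrogen and amino acid genes were changed at several steps. GAT1_2.1, which resembles glutamine amidotransferases, read 10.44 and 9.58 in hypoxia and 6.47 and 6.22 in air (SLR 3.67, SE 0.24, adjusted p = 3.65e-05). The core gene ACR7, a protein with amino acid-binding ACT domains, read 10.11 and 9.96 in hypoxia and 6.38 and 6.01 in air (SLR 3.84, SE 0.14, adjusted p = 1.51e-06). GDU1, which promotes glutamine export, read 10.03 and 9.95 in hypoxia and 7.66 and 7.70 in air (SLR 2.31, SE 0.08, adjusted p = 9.17e-07). These 3 rose without overlap between the groups. ADC1, which opens polyamine synthesis from arginine, was lower (SLR -1.29), and ERD5, the proline dehydrogenase, was called higher (SLR 1.42), though not without Col-0 hypoxia replicate 1 or Col-0 non-stress replicate 2, where its adjusted p reached 0.0146. In all 8 genes of the group were higher and 3 lower.

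Beyond sucrose breakdown and fermentation, genes of starch, hexose and trehalose metabolism were higher only. GBSS1, the granule-bound starch synthase, read 8.55 and 9.12 in hypoxia and 7.18 and 7.36 in air (SLR 1.56, SE 0.17, adjusted p = 0.000688). TPPA, a trehalose phosphate phosphatase, had an SLR of 1.48 (SE 0.10, adjusted p = 5.71e-05), and C/VIF1, an inhibitor of invertase, one of 1.41 (SE 0.16, adjusted p = 0.000738). GPT2, the plastid glucose phosphate carrier, was called at an SLR of 1.11 but in none of the 4 fits that left out a Col-0 array, with adjusted p-values of 0.015 to 0.0427. It is the weakest member of the group.

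The phosphate starvation genes that were called were all higher in hypoxia. All 11 called genes of phosphate and membrane lipid turnover were higher, with a median SLR of 2.71. Of the 12 members of the phosphate list with a probe set, 10 were called higher and 0 lower, beside 2.02% and 0.835% of all probe sets tested. All 12 were named through the table of changed genes, which favours changed ones, so that their count cannot stand for the pathway. GDPD2, a glycerophosphodiester phosphodiesterase, read 10.40 and 10.21 in hypoxia and 6.96 and 6.66 in air (SLR 3.49, SE 0.12, adjusted p = 9.19e-07). GDPD1 read 11.55 and 12.16 in hypoxia and 8.02 and 8.16 in air (SLR 3.77, SE 0.17, adjusted p = 5.38e-06). MGD3, which makes galactolipids that replace phospholipids, read 7.98 and 8.98 in hypoxia and 5.18 and 5.37 in air (SLR 3.21, SE 0.26, adjusted p = 0.000139). The groups were apart in each, but replicate 2 was higher than replicate 1 within both treatments for GDPD1 and MGD3. It was so too for PS2, a pyrophosphatase (8.59 and 9.73 in hypoxia, 5.20 and 5.67 in air, SLR 3.72), and for PAP17, an acid phosphatase (11.16 and 11.87 in hypoxia, 8.68 and 9.41 in air, SLR 2.47). The SPX domain sensors SPX3 and SPX2 had SLRs of 2.14 and 1.36. MGD2 and PEPC1 lost their call without Col-0 non-stress replicate 1, MGD2 also without Col-0 hypoxia replicate 2 and PEPC1 also without Col-0 non-stress replicate 2, with adjusted p-values up to 0.0328 and 0.025.

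Iron genes were also touched. PYE, a bHLH repressor of the iron deficiency response, read 10.02 and 10.68 in hypoxia and 8.02 and 8.61 in air (SLR 2.03, SE 0.24, adjusted p = 0.000908). bHLH39, an activator of iron uptake, read 9.82 and 9.49 in hypoxia and 7.55 and 8.18 in air (SLR 1.79, SE 0.25, adjusted p = 0.002), and was not called without Col-0 non-stress replicate 1 (adjusted p = 0.0126). Of the 4 list members with a probe set, 2 were called higher, beside 2.02% of all probe sets tested, and all had SLRs above 1. So few genes carry little weight.

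**Figure D3:**
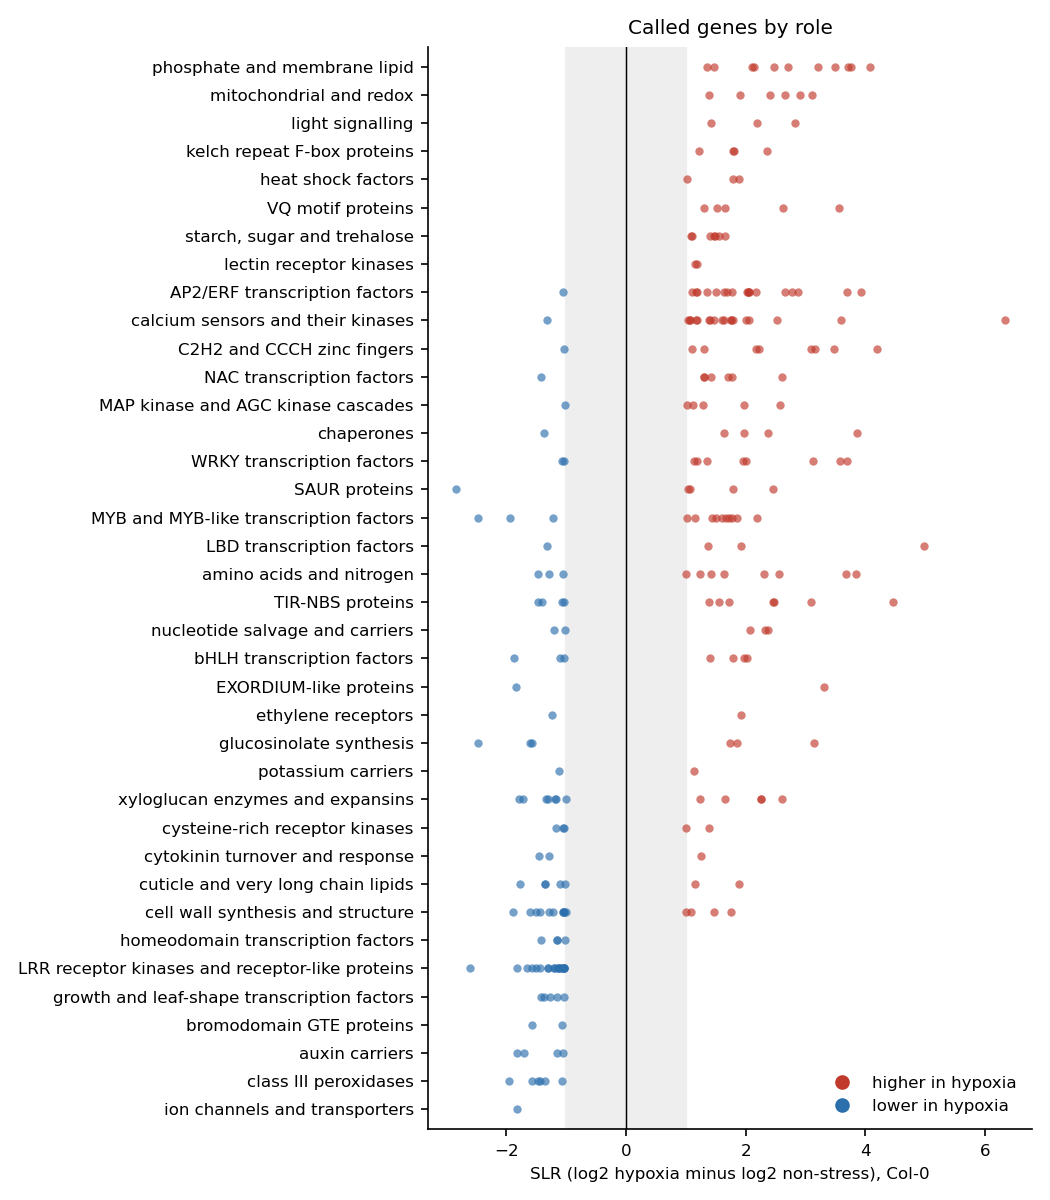
SLR (x axis) of the called genes in 38 role groups put together after the values were known, ordered by the share of higher genes. Each point is a probe set, red for higher and blue for lower in hypoxia, and the grey band marks |SLR| up to 1. The top groups (phosphate and membrane lipid, mitochondrial and redox) lie on the right only, and receptor kinases with leucine-rich repeats, auxin carriers and class III peroxidases on the left only.

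Among the genes that hypoxia lowered, leucine-rich repeat receptor kinases and receptor-like proteins were the most numerous group, with 20 genes lower and 0 higher. In the descriptions of the supplementary table the words leucine-rich repeat stood for 13 lower genes and 1 higher gene with a single name, the higher one being RPS6 (SLR 1.55). BAM3 and BAM2, receptors of CLE peptides close to CLAVATA1, had SLRs of -1.66 and -1.14. BAM3 read 7.68 and 7.66 in hypoxia and 9.33 and 9.34 in air, a 3.17-fold decrease (SE 0.08, adjusted p = 6.04e-06). RUL1, a receptor-like kinase of cambium activity, read 6.50 and 6.50 in hypoxia and 7.98 and 8.18 in air (SLR -1.58, SE 0.11, adjusted p = 4.2e-05). The arrays of a group lay close together in both. HSL1, a relative of HAESA, and BRL2, a vascular relative of the brassinosteroid receptor, had SLRs of -1.51 and -1.30. AT3G28040, a kinase with no known role, read 8.42 and 8.40 in hypoxia and 10.19 and 10.29 in air (SLR -1.83, SE 0.08, adjusted p = 5.21e-06). The immune receptor FLS2, which senses flagellin, had the largest decrease of the group (SLR -2.61), and RLP31 and RLP30 had -1.44 and -1.11. Without Col-0 non-stress replicate 2, RLP30 missed the limit (|SLR| of 0.97). Of the 20 genes, 14 kept their call in each fit without 1 Col-0 array. AT4G36180 (SLR -1.16) kept it in 1 of these 4 fits, with adjusted p-values up to 0.0169.

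Other receptor kinases differed from this pattern. Of 5 called cysteine-rich receptor kinases, CRK3 and CRK2 were higher (SLR 1.38 and 1.01) and CRK29, CRK30 and CRK28 lower (SLR -1.17, -1.05 and -1.03). Only CRK3 kept its call in every fit without 1 Col-0 array. CRK28 and CRK29 are neighbours on the chromosome, as are CRK2 and CRK3. The lectin receptor kinases LecRK-IV.3 and LecRK-VI.2 were higher (SLR 1.18 and 1.16), and LecRK-VI.2 lost its call without Col-0 non-stress replicate 1 or Col-0 non-stress replicate 2 (adjusted p up to 0.0171).

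Auxin carriers were lower in 4 of 4 called cases. PIN7, an efflux carrier, read 7.65 and 7.72 in hypoxia and 9.42 and 9.59 in air, a 3.54-fold decrease (SLR -1.82, SE 0.12, adjusted p = 3.56e-05). PIN4 read 8.64 and 8.58 in hypoxia and 10.33 and 10.28 in air (SLR -1.70, SE 0.08, adjusted p = 5.67e-06). LAX3, an influx carrier, had an SLR of -1.16 and PIN3 one of -1.06, and PIN3 fell just short of the limit without Col-0 non-stress replicate 1 (|SLR| of 0.99). The groups did not overlap in any of the 4 genes, as in all called probe sets. The 12 auxin list members with a probe set had 3 called higher and 3 called lower, beside 2.02% and 0.835% of all probe sets tested. The 5 that the platform table names had 1 higher and 0 lower. The 7 named through the table of changed genes, which favours changed ones, had 2 higher and 3 lower.

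The lowest SLR of all belonged to SAUR57, of a family of small auxin-induced proteins that act in cell expansion. It read 5.15 and 5.19 in hypoxia and 8.18 and 7.88 in air, a 7.23-fold decrease (SLR -2.85, SE 0.23, adjusted p = 0.000124). The other 4 called SAUR genes were higher. SAUR27 read 7.57 and 7.61 in hypoxia and 4.98 and 5.29 in air (SLR 2.45, SE 0.16, adjusted p = 3.42e-05), and SAUR78 had an SLR of 1.79. SAUR28 and SAUR72 were near the limit (SLR 1.07 and 1.03), and each was called in 1 of the 4 fits without a Col-0 array, with adjusted p-values up to 0.0231 and 0.0152.

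Transcription factors of growth and leaf shape were lower only. HB52, HB5, BLH6 and HB34, of the homeodomain class, had SLRs of -1.43, -1.15, -1.15 and -1.02. HB52 read 5.54 and 5.32 in hypoxia and 6.96 and 6.76 in air (SE 0.13, adjusted p = 0.000275). SPL2, GRF1, GRF3, NGA1 and TCP3, regulators of leaf growth, had -1.42, -1.38, -1.27, -1.16 and -1.04. SPL2 read 5.19 and 5.64 in hypoxia and 6.65 and 7.01 in air (SE 0.17, adjusted p = 0.000851). The bromodomain protein GTE7 read 8.44 and 8.45 in hypoxia and 10.07 and 9.96 in air (SLR -1.57, SE 0.09, adjusted p = 2.37e-05). Many of these genes lay close to the limit, and 5 of the 11 kept their call in every fit without 1 Col-0 array (HB52, HB5, SPL2, NGA1 and GTE7). GRF3 kept it in 1 fit, with adjusted p-values up to 0.0231. Outside these classes, the trihelix gene AT5G28300 read 5.17 and 5.18 in hypoxia and 6.95 and 7.34 in air (SLR -1.98, SE 0.15, adjusted p = 0.000103), and the MYB family gene AT5G58900 read 7.03 and 6.99 in hypoxia and 8.94 and 8.95 in air (SLR -1.94, SE 0.10, adjusted p = 9.44e-06).

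Root hair and peroxidase genes were lower. All 6 called class III peroxidases, which act on cell walls and hydrogen peroxide, were lower, at SLRs of -1.95 to -1.07. RHS19 read 7.98 and 7.51 in hypoxia and 9.18 and 9.27 in air (SLR -1.48, SE 0.18, adjusted p = 0.00104), and RHS18 read 6.07 and 5.31 in hypoxia and 7.35 and 7.17 in air (SLR -1.57, SE 0.24, adjusted p = 0.00344). The hypoxia arrays differed more than the air arrays in both, and only AT1G30870 kept its call in each fit without 1 Col-0 array. RHS19 lost it without Col-0 non-stress replicate 2 (adjusted p = 0.0102) and RHS18 without Col-0 non-stress replicate 1 or Col-0 non-stress replicate 2 (adjusted p up to 0.0271). Of 11 root hair list members with a probe set, 7 were lower and 0 higher. The 4 among them that the platform table names had 3 lower and a median SLR of -1.44, beside 0.618% of the genes of that table. The root markers COBL9 and TIP2;3, which were not called, had SLRs of -0.86 and -0.92, and their part in this was not tested.

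Cell wall and cuticle genes were mostly lower. Of 15 called genes of wall synthesis and structure, 11 were lower and 4 higher. GALT29A, which extends arabinogalactan side chains, read 7.52 and 6.98 in hypoxia and 9.16 and 9.13 in air (SLR -1.89, SE 0.16, adjusted p = 0.000177). TBL27, which acetylates xyloglucan, had an SLR of -1.61, GSL1, a callose synthase, one of -1.51, and GH9C2, an endoglucanase, one of -1.44. On the higher side GAE1, an epimerase that supplies pectin synthesis, read 13.29 and 13.32 in hypoxia and 11.51 and 11.58 in air (SLR 1.76, SE 0.08, adjusted p = 3.94e-06), and PME1 had 1.47. Of 7 called genes of the cuticle and very long chain lipids 5 were lower. KCS19, an elongase of very long chain fatty acids, read 8.81 and 8.66 in hypoxia and 10.47 and 10.56 in air (SLR -1.78, SE 0.10, adjusted p = 1.38e-05). CYP96A9 was higher (SLR 1.89) and its relative CYP96A12 lower (SLR -1.11, lost without Col-0 non-stress replicate 2 with an adjusted p of 0.0125).

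ALMT1, a malate channel of root tips, read 6.70 and 6.56 in hypoxia and 8.89 and 8.03 in air (SLR -1.83, SE 0.27, adjusted p = 0.00256). Its air arrays were far apart, and without Col-0 hypoxia replicate 2 it was not called (adjusted p = 0.0111). AT5G57760, with no known role, had a tighter fall, with 5.65 and 5.46 in hypoxia and 7.90 and 7.68 in air (SLR -2.24, SE 0.15, adjusted p = 3.83e-05).

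Several small families had members in both directions. In indole glucosinolate synthesis, which makes defence compounds from tryptophan, the MYB activators MYB51 and MYB34 moved apart. MYB51 read 8.44 and 8.59 in hypoxia and 6.53 and 6.81 in air (SLR 1.85, SE 0.12, adjusted p = 3.13e-05). MYB34 read 6.66 and 6.71 in hypoxia and 8.95 and 9.38 in air (SLR -2.47, SE 0.14, adjusted p = 1.56e-05). CYP81F2, which modifies the finished compound, read 9.13 and 9.28 in hypoxia and 6.12 and 6.01 in air (SLR 3.14, SE 0.16, adjusted p = 8.4e-06). CYP83B1, a core enzyme of the pathway, read 9.95 and 9.69 in hypoxia and 11.14 and 11.66 in air (SLR -1.58, SE 0.20, adjusted p = 0.00123). Thus the late step and 1 regulator were higher, and an early step and the other regulator lower. CYP79B2, which acts before CYP83B1, was lower too (SLR -1.60), but not without Col-0 hypoxia replicate 2 or Col-0 non-stress replicate 2 (adjusted p up to 0.0103).

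Wall-loosening enzymes split in the same way. The xyloglucan endotransglucosylases TCH4, XTR6 and XTH18 were higher (SLR 2.61, 2.26 and 1.24) and XTH31 and XTH13 lower (SLR -1.79 and -1.19), with XTH12 lower by just more than the limit. TCH4, a gene known for its response to touch, read 11.24 and 10.99 in hypoxia and 8.75 and 8.26 in air (SE 0.16, adjusted p = 2.3e-05). XTH31 read 8.93 and 8.58 in hypoxia and 10.41 and 10.68 in air (SE 0.14, adjusted p = 0.000122). XTH18, XTH13 and XTH12 were each called in only 1 of the 4 fits without a Col-0 array, with adjusted p-values up to 0.0166, 0.0592 and 0.0322. Of the alpha-expansins, which loosen growing walls, EXPA10 was higher, with 10.77 and 11.35 in hypoxia and 9.23 and 9.56 in air (SLR 1.66, SE 0.20, adjusted p = 0.00106). EXPA18, EXPA15, EXPA16 and EXPA7 were lower (SLR -1.72, -1.34, -1.31 and -1.17). EXPA18 read 6.07 and 5.70 in hypoxia and 7.62 and 7.60 in air (SE 0.14, adjusted p = 0.00013), and the other 3 each kept their call in 2 of the 4 fits without a Col-0 array, with adjusted p-values up to 0.0118, 0.0141 and 0.0146. All 10 alpha-expansins that the platform table names had an SLR below 0, with a median of -0.53, although those of EXPA8 and EXPA21 were -0.02 and -0.00 with overlapping groups.

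Further pairs differed by regulator or carrier. BEE1 and BEE3, bHLH genes of the brassinosteroid response, had SLRs of 1.98 and -1.88. BEE1 read 8.22 and 8.16 in hypoxia and 6.15 and 6.26 in air (SE 0.13, adjusted p = 4.78e-05), and BEE3 read 7.44 and 6.54 in hypoxia and 8.96 and 8.78 in air (SE 0.32, adjusted p = 0.00567). BEE3 kept its call in 1 of the 4 fits without a Col-0 array, with adjusted p-values up to 0.0381. The ethylene receptors ETR2 and ERS1 had SLRs of 1.93 and -1.24. ERS1 read 8.49 and 7.99 in hypoxia and 9.55 and 9.43 in air (SE 0.16, adjusted p = 0.0013), and lost its call without Col-0 hypoxia replicate 2 or Col-0 non-stress replicate 1 (adjusted p up to 0.0125). Of the EXORDIUM-like proteins, PHI-1 read 10.73 and 10.29 in hypoxia and 7.42 and 6.97 in air (SLR 3.31, SE 0.19, adjusted p = 1.81e-05), and EXL5 read 9.25 and 8.71 in hypoxia and 10.95 and 10.69 in air (SLR -1.84, SE 0.17, adjusted p = 0.00026). Both of these kept their call in each fit without 1 Col-0 array. The amino acid transporters UMAMIT14 and SIAR1 had 2.55 and -1.48. UMAMIT14 read 9.85 and 9.00 in hypoxia and 7.01 and 6.74 in air (SE 0.24, adjusted p = 0.000262), and SIAR1 read 9.02 and 8.54 in hypoxia and 10.18 and 10.34 in air (SE 0.15, adjusted p = 0.000355). The LBD genes LBD40 and LBD4 were higher (SLR 1.93 and 1.37) beside the core gene LBD41, and LBD39, a repressor of nitrate genes, was lower (SLR -1.32, SE 0.10, adjusted p = 7.3e-05).

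**Figure D4:**
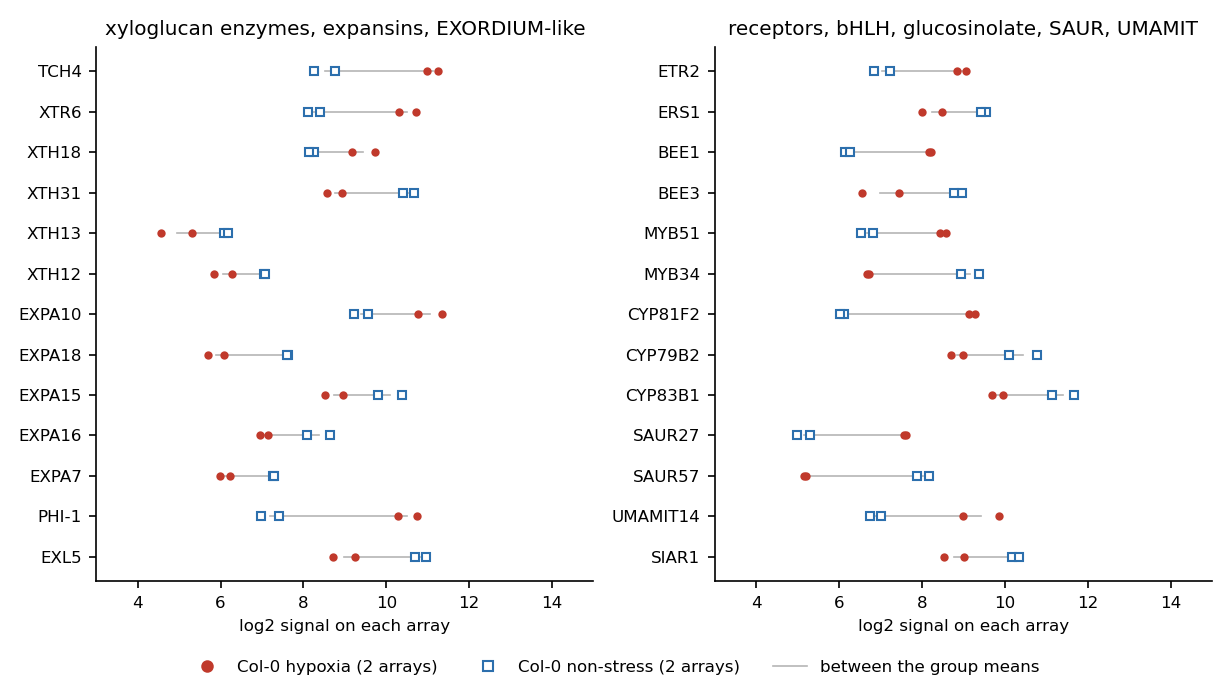
Log2 signal (x axis) on each Col-0 array for related genes called in opposite directions. Filled circles are hypoxia arrays, open squares non-stress arrays and grey lines join the group means. TCH4 and MYB51 lie higher in hypoxia and XTH31 and MYB34 lower, with no overlap between the groups, as in all called probe sets.

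For some processes a few genes had names that did not depend on their response, those named by the platform table. The lists themselves were chosen with earlier results of these data known. Of all genes named by that table, 1.82% were called higher and 0.618% lower. With so few genes per list, a count of 0 is near that background and says nothing of the process. Of 7 ATG8 genes of autophagy, which energy shortage can induce, 0 were called, and their SLRs ran from -0.02 to 0.51 (median 0.09). Of 5 nuclear photosynthesis genes 0 were called, with SLRs of -0.25 to 0.45 (median -0.04). The unfolded protein response and cell cycle lists had 2 such genes each, none called, with medians of 0.31 and -0.28, and CDT1A, which licenses DNA replication and is named through the table of changed genes, was lower (SLR -1.06), though not without Col-0 hypoxia replicate 2 (|SLR| of 0.98). In a screen of 27 families of at least 8 genes that share a symbol, 12 had a called member and 4 had more than 1. Of 51 UGT glycosyltransferases 2 were lower and 0 higher, of 16 SWEET sugar carriers 0 were called in either direction, and of 11 GSTU genes 0. The GSTU gene GSTU17, named only through the table of changed genes, was higher (SLR 1.90, SE 0.21, adjusted p = 0.000609).

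Lists of known pathway genes add counts for further processes, beside 2.02% of all probe sets tested called higher and 0.835% lower (1.82% and 0.618% of the genes named by the platform table). Lists of 3 to 5 measured genes carry little weight. Of 29 early stress transcription factors with a probe set, 24 were higher and 0 lower, of 13 genes of calcium signalling 7 and 0, and of 11 genes of reactive oxygen and mitochondrial retrograde signalling 5 and 0. All 6 genes of fermentation and all 5 of oxygen sensing were higher, and 4 of 6 of sucrose use and glycolysis. Of 5 cytokinin genes 1 was higher and 2 lower, and of 13 genes of cell wall loosening 4 were higher and 2 lower. Of 3 genes of gibberellin and brassinosteroid 2 were higher and 1 lower, and of 3 light and flavonoid genes 1 was higher. Of the ethylene list, 10 members had a probe set, of which 2 were higher and 1 lower. Of the abscisic acid list 4 were measured and 2 were higher, and of the jasmonate list 3 were measured and 2 were higher. Of 3 aquaporins 0 were called, with SLRs of -0.99 to -0.52. Of 11 genes of immune receptors and defence 1 was higher and 2 lower. The sugar starvation list had 4 of 8 higher and 0 lower, the nitrate list 3 of 4 higher and 1 lower, and the circadian clock list 2 of 4 higher and 0 lower. Except in the lists of cell wall loosening, nitrate, and light and flavonoid genes, most of these members were named through the table of changed genes, which favours changed ones.

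Some induced genes stood next to each other. In the order of protein-coding genes of the RefSeq annotation (TAIR10.1), 39 of the 427 induced genes that could be placed lay in 19 runs of adjacent induced genes. The number expected for a list of this length was not computed. The longest run was AT2G44360, AT2G44370 and AT2G44380 (SLR 1.09, 1.91 and 1.70), the last 2 of which encode DC1 domain proteins. Others paired relatives, such as the acetyltransferase genes AT2G32020 and AT2G32030 (SLR 2.02 and 2.30) and SAUR28 and SAUR27. AT2G32030 read 7.76 and 7.92 in hypoxia and 5.50 and 5.57 in air. Still others joined unlike genes, such as AT1G25550 of the MYB family and TEM1. The heavy-metal-associated domain gene AT5G52750 read 8.02 and 8.88 in hypoxia and 5.48 and 5.47 in air (SLR 2.98), and its neighbour AT5G52760 read 5.82 and 6.56 in hypoxia and 4.25 and 4.15 in air (SLR 1.99).

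The OE-HRA1 arrays, which had no part in the calls beyond the shared estimate of spread, measured the same treatment in other seedlings. HRA1 itself read 12.19 and 12.02 on the OE-HRA1 hypoxia arrays and 12.98 and 13.09 on the OE-HRA1 non-stress arrays. In Col-0 it read 11.74 and 12.10 in hypoxia and 7.20 and 7.00 in air, so that the overexpression was visible in air. In OE-HRA1, 1.95% of the probe sets tested were called higher and 1.12% lower, 3.07% in all. Among the 458 that rose in Col-0, 316 (69.0%) were called higher in OE-HRA1 too, 450 had the same sign, and the median SLR there was 1.42. Of the 189 lower ones, 136 (72.0%) were called lower, 189 of 189 had the same sign, and the median SLR was -1.24. None was called in the opposite direction. The share of all probe sets tested with the same sign in both genotypes was not computed. A further 59 of the induced and 38 of the lowered probe sets passed the p threshold in OE-HRA1 but not the minimum SLR.

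The test of the difference in response, OE-HRA1 minus Col-0, called 35 of the 458 induced probe sets, all with a smaller response in OE-HRA1, and 0 of the 189 lowered ones, where 0.163% and 0.00442% of all probe sets were called as smaller and larger in OE-HRA1 (0.168% in all). The Col-0 arrays that chose these probe sets also enter this difference, which leans it downward for induced genes. An unadjusted p under 0.05 for this difference was found in limma for 206 of the induced and 29 of the lowered probe sets, and for 1295 of all tested. Of the 35 probe sets 14 lay outside the core genes. SAUR27 had an SLR of 0.45 in OE-HRA1 against 2.45 in Col-0 (adjusted p of the difference = 0.00992), and BEE1 had -0.01 in OE-HRA1 against 1.98 in Col-0 (difference -1.99, adjusted p of the difference = 0.00568). EXLB2 and CYP96A9 differed by -1.97 and -1.85. Other genes had values of similar size side by side, with STZ at an SLR of 3.50 in OE-HRA1 against 3.48 in Col-0, AT2G22880 at 3.43 against 3.56 and AT3G28040 at -1.87 against -1.83. Of the phosphate genes, SPX1 stood at 5.18 in OE-HRA1 against 4.08 in Col-0 and GDPD2 at 4.14 against 3.49, differences of 1.10 and 0.64 with adjusted p-values of 0.248 and 0.359.

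**Figure D5:**
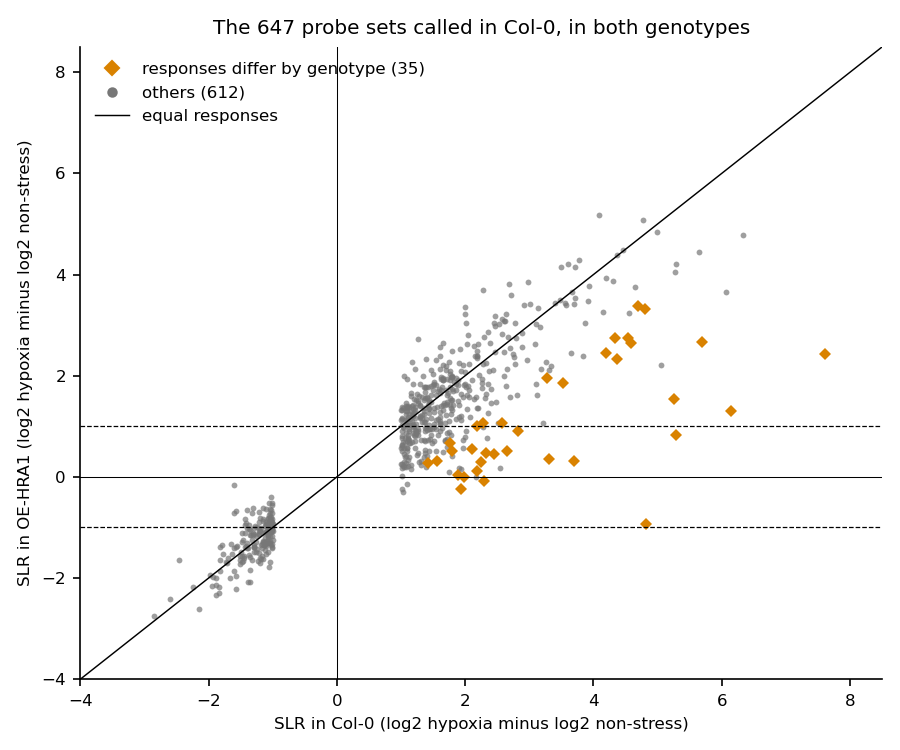
SLR in OE-HRA1 (y axis) against SLR in Col-0 (x axis) for the 647 probe sets called in Col-0. Orange diamonds are the 35 probe sets whose response differed by genotype, all of them below the line of equal responses, and dashed lines mark an SLR of 1 and -1.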

How the data were processed

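The deposited table holds log2 signals of 22810 probe sets on 8 ATH1 arrays, made by the authors with robust multiarray averaging (RMA). By the study's methods the arrays were summarised together with others from 35S:HA:RAP2.12 rosettes, and MAS5 present calls served as a filter, which was not repeated here. From these values, 64 control and 112 organelle probe sets were left out. A linear model with a mean for each of the 4 groups was fitted to the other 22634 in limma 3.58.1 (R 4.3.3), with 4 residual and 4.15 prior degrees of freedom, and p-values were adjusted after Benjamini and Hochberg over all of them. All p-values in the text are limma's. The procedure was tested on simulated data.

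Arrays of 1 group correlated at 0.994 to 0.997. The sources used here do not say what the replicate numbers of Col-0 stand for, so that p-values measure only the spread between these arrays. With 2 arrays a group, their number limits the precision.

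Names came from the platform annotation (13420 probe sets) or, where that gave none, from the study's supplementary table of changed genes (573 probe sets), and 8641 had no single gene name. The authors' fold changes and p-values in that table were not used. Genes named through it were likelier to have changed. Named were the 15 largest SLRs in each direction with a single gene name and no overlap between the arrays of the groups. Of each of 32 gene lists, up to 4 called members in each direction were named, or 2 members where none was called. Named were also the 3 probe sets nearest the limit on each side of it, the reference genes and the tissue markers. The members and lists were chosen with earlier results of these data known. The 38 role groups, the families sharing a symbol and the adjacent genes were chosen after the values were seen. Alternatives covered filters on signal, the prior variance, normalization, the arrays in the fit, blocks, thresholds, annotation and leaving out each Col-0 array. Promoter motifs and protein sequences were not analysed here.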

Additional observations from a re-analysis of the deposited data

Results flagged for a closer look

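In 34 genes called higher in Col-0 and known by a single name, the hypoxia response differed between OE-HRA1 and Col-0 by a test of the difference itself (limma, adjusted p under 0.01). Differences are OE-HRA1 minus Col-0, in log2 units, and all were below 0. The largest was that of HRA1 (-5.75, with an SLR of -0.93 in OE-HRA1 and 4.82 in Col-0). Its signal in OE-HRA1 includes transcript of the overexpressed copy, so -0.93 is not the response of the plant's own HRA1 gene. In the study's PCR measurements of OE-HRA1, transcript of the plant's own gene was higher in hypoxia than in air, and total HRA1 transcript was lower. Over 2 units smaller were the responses of AT5G10040 (-5.18), SUS4, a sucrose synthase (-4.46), and AT1G19530 (-3.72). So were those of HRE1, a group VII ethylene response factor (-3.38), SRO5 (-3.03), PHI-1 (-2.96), PFK6, a phosphofructokinase (-2.39), and the receptor ETR2 (-2.16). The oxidase RBOHB (-2.14), the pyruvate decarboxylase PDC2 (-2.06) and the alcohol dehydrogenase ADH1 (-2.04) also differed by over 2 units. SAUR27 was at -2.0, BEE1 at -1.99, EXLB2 at -1.97, the cysteine oxidase PCO2 at -1.95, the ethylene-forming enzyme ACO1 at -1.93, UKL3 at -1.86, CYP96A9 at -1.85, AT3G27220 at -1.79, PCO1 at -1.75, AT5G42200 at -1.67, AT5G66985 at -1.59, PFK3 at -1.54, AT5G44730 at -1.52 and AT4G24110 at -1.49. The smallest differences were those of AT4G33560 and PP2-A11 (-1.31 each), SAUR78 (-1.28), AT1G04770 (-1.25), AT3G02555 and AT1G74940 (-1.19 each), GBF2 (-1.15) and GAE1 (-1.1). The difference was below 0 for every one of these genes that was tested under each alternative. It was called for 9 of the 34 without Col-0 non-stress replicate 1, 11 without Col-0 non-stress replicate 2, 15 without Col-0 hypoxia replicate 1 and 18 without Col-0 hypoxia replicate 2, for 21 with a replicate block over all 8 arrays and for 4 in limma's treat.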

How the results depend on the processing

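No call of the 647 changed direction under any alternative run. With 2 arrays a group, the size of a change near the limit was poorly fixed: leaving out each Col-0 array in turn gave 404 to 514 higher and 160 to 255 lower probe sets, 344 and 89 of those called with all arrays kept the call in each of these fits, and so did 152 of the 154 with an SLR above 2. The genotype difference, called for 38 probe sets, had 11 to 34 without 1 Col-0 array (24 without Col-0 hypoxia replicate 1, 11 without Col-0 non-stress replicate 1 and 12 without Col-0 non-stress replicate 2). Of the list members named by the platform table, 21 were called with all arrays and 15 to 25 in these fits, counted anew in each fit. In limma's treat, which tests against an |SLR| of 1, 158 probe sets were higher and 11 lower (93.5% higher, against 70.8%), 5 differed by genotype and 6 list members were called. Restricting the test to the top 40% by mean signal left 283 higher, 96 lower and 25 differing by genotype, since fewer probe sets were tested. Without a minimum SLR, 930 were higher and 1065 lower (46.6% higher). An adjusted p under 0.05 gave 61 probe sets differing by genotype. A replicate block over all 8 arrays gave 459 higher, 184 lower and 26 differing by genotype, and a replicate block within genotype 486, 202 and 66. Deviations of same-numbered arrays correlated at 0.37 in Col-0 and 0.15 in OE-HRA1, over 2 pairs only. In Col-0 the numbers were not taken as a pairing. In OE-HRA1 they stand for lines #1 and #2, a pairing that the main fit left out. Differences between these lines thus entered the shared estimate of spread, and the block within genotype took them into account. Fitting only the 4 Col-0 arrays gave 365 higher and 130 lower, and 154 calls were lost. The trend and robust priors, quantile normalization, centring on the median (485 higher and 159 lower), the top 60% by signal and single-gene probe sets kept all these counts within 1.5 times. Of 316 called probe sets named by the rule or in the text, 223 kept their call in each fit without 1 Col-0 array, 215 lost it in treat, 67 with only the 4 Col-0 arrays and 21 under another setting, and 0 reversed. The count of promoter motifs was not run.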
